A study of Arabidopsis thaliana with 18 samples.

Results

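Transcripts of the mitochondrial genome were followed across 18 mRNA libraries of Arabidopsis thaliana seedlings. The rows were chosen by their identifier, which starts with ATMG for genes of the mitochondrial chromosome, and the choice used no measured value. There were 134 such rows among 31362 rows in all, and they held 146 genes, since 11 rows join overlapping genes. Together they took 16786 counts over the 18 libraries. Counts fell on 74 of the rows, the other 60 stood at 0 in every library, and 29 rows had enough counts to be tested. Counts here are the authors' read counts per row, and their counting rule is not given in the sources used here.

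Plant mitochondria keep a genome of their own, which encodes a minority of the subunits of the respiratory chain complexes and the ATP synthase, factors of cytochrome c maturation, several ribosomal proteins, and the ribosomal RNAs. The remaining subunits are encoded in the nucleus and imported. In plant mitochondria a poly(A) tail marks an RNA for decay, unlike on nuclear mRNA, so libraries that select poly(A) RNA hold few mitochondrial reads. The labels do not say how mRNA was selected. Chromosome 2 of this accession carries a large inserted copy of the mitochondrial genome near its centromere, so many mitochondrial genes have near-identical nuclear copies.

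All plants were of the Columbia accession, grown in vitro at 22 °C with 18 h light and 6 h dark per day and taken whole at 11 days after germination. With intact DCL genes, 35S-RTL2 (3 libraries) and 35S-RTL1-Myc (2 libraries) carry an RNase III-like gene driven by the viral 35S promoter, and rtl2-1 (3 libraries) is a mutant of RTL2. In the dcl234 background, a triple mutant of DCL2, DCL3 and DCL4, there were dcl234 35S-RTL2 (3 libraries), dcl234 35S-truncatedDCL1 (1 library, a truncated DCL1 driven by 35S) and dcl234 with no transgene (3 libraries). Col-0 (3 libraries) is the wild type. RTL1 and RTL2 are relatives of the Dicers that cut double-stranded RNA. The number of transgenic lines per construct, and whether replicates came from separate cultures, is not stated, so p-values measure only the spread between these libraries, which may be technical.

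The libraries held 20775728 to 34874423 counts each. On the CPM scale, which gives counts relative to a library size scaled by edgeR's TMM method, RTL1 stood at 1525 to 1585 CPM in 35S-RTL1-Myc and at 0.167 to 0.565 CPM in Col-0, and RTL2 at 515 to 618 CPM in 35S-RTL2, 1674 to 2053 CPM in dcl234 35S-RTL2, 0.304 to 0.592 CPM in rtl2-1 and 2.89 to 2.98 CPM in Col-0. DCL4 stood at 25.9 to 31.9 CPM in dcl234 and 27.1 to 35.4 CPM in Col-0, so its row does not check the mutant label. The row joining DCL3 with AT3G43930 stood at 2.58 to 3.75 CPM in dcl234 and 19.1 to 21.7 CPM in Col-0, and that joining DCL2 with AT3G03305 at 40.5 to 42.5 CPM in dcl234 and 63.9 to 76.4 CPM in Col-0. The row that holds DCL1 stood at 1417 CPM in dcl234 35S-truncatedDCL1 and 143 to 152 CPM in dcl234. Leaf markers were high, with RBCS1A between 4975 and 9436 CPM, while the root hair markers EXPA7 and EXPA18 were at most 0.0481 and 0.0406 CPM and the floral organ genes AP3 and AG stood at 89.3 to 147 CPM and 37.8 to 49.2 CPM. Other root markers were detected, with IRT1 at 6.77 CPM or more, SHV2 at 0.204 to 1.25 CPM and the row with CASP1 at 1.36 to 11.3 CPM, but PHT1;1 was at most 0.0418 CPM. The seed genes SESA1 and CRA1 were at most 0.192 and 0.239 CPM. Root hair genes near 0 and floral organ genes at these levels differ from what the label of whole seedlings implies, and the part of tissue makeup in the mitochondrial values was not tested. No row of the plastid genome was among the 31362.

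Mitochondrial transcripts were a very small part of every library. Their share of all counts had a median of 0.00313% over the 18 libraries, with a lowest value of 0.00251% in rtl2-1 replicate 3 and a highest value of 0.00743% in 35S-RTL2 replicate 1. In absolute terms a library held between 640 and 1544 mitochondrial counts, spread over 44 to 55 rows. The deposited tables' names carry a tag that may stand for removal of ribosomal RNA reads, which the labels do not explain, and such reads would then be missing from these shares. In bulk samples fewer mitochondria or cells of a type and less RNA per cell cannot be told apart.

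Counts were concentrated on few rows. The row joining ATMG00090 and ATMG00080 alone took 5801 counts, or 34.6% of all mitochondrial counts, ATMG00060 took 12.5% and ATMG00160 took 12.3%, so that these 3 rows held 59.4%. The fourth row, which joins ATMG01010, ATMG01000 and ATMG00990 and so contains the NADH dehydrogenase 3 gene, had 1031 counts. At the other end 37 rows had between 1 and 30 counts over all libraries. These are counts per row and not per length, so they do not order the genes by level. Names are printed for the 45 mitochondrial genes that RefSeq's annotation of the TAIR10.1 assembly mentions when it describes a chromosome 2 gene as their counterpart, and the other identifiers are given without a name.

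3 libraries stood apart from the rest. 35S-RTL2 replicate 1 had a mitochondrial share of 0.00743%, dcl234 replicate 2 of 0.00637% and 35S-RTL2 replicate 3 of 0.00518%, whereas the other 15 libraries lay between 0.00251% and 0.00413%. The exact 95% binomial intervals of those 3 shares were 0.00707 to 0.00781%, 0.00604 to 0.00671% and 0.00490 to 0.00547%, which cover counting error only.

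**Figure D1:**
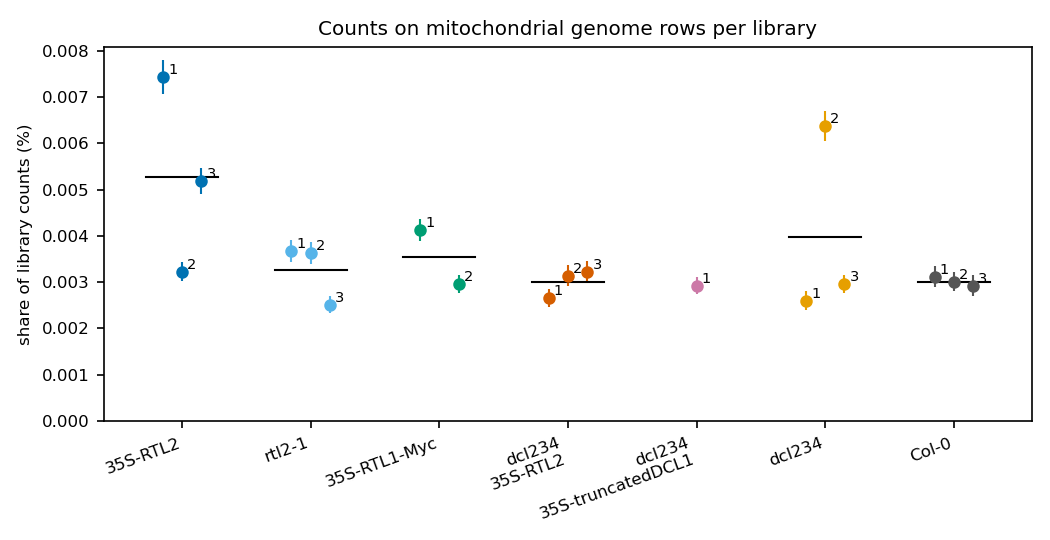
Share of each library's counts (%, y axis) that fell on mitochondrial rows, by group (x axis), with replicate numbers beside the points. Vertical bars are exact 95% binomial intervals and horizontal lines are group means. 35S-RTL2 replicates 1 and 3 and dcl234 replicate 2 lie above 0.005%, and the other 15 libraries lie at or below 0.00413%.

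In 35S-RTL2 plants the mitochondrial share was 0.00743%, 0.00322% and 0.00518% in replicates 1 to 3, against 0.00312%, 0.00301% and 0.00292% in Col-0. All 3 libraries of 35S-RTL2 were above all 3 of Col-0, but replicate 2 exceeded the highest Col-0 library by less than the width of their counting intervals. The group means were 0.00528 ± 0.00211% in 35S-RTL2 and 0.00301 ± 9.82e-05% in Col-0 (SD, n = 3 each), a ratio of 1.75. That ratio was 1.39 without replicate 1 and 1.07 without replicates 1 and 3. Within the numbered sets that the deposited tables' names give, whose meaning is not stated, it was 1.72 in set 2 and 1.07 in set 3. No p-value is given for this share, since it is a sum over chosen rows.

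In rtl2-1 plants, mutant for RTL2, the share was 0.00367%, 0.00362% and 0.00251%, so these libraries lay on both sides of Col-0. The ratio of means was 1.08. It was 1.21 in set 2 and 0.834 in set 3.

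In 35S-RTL1-Myc plants the share was 0.00413% and 0.00296%, again overlapping Col-0, with a ratio of 1.18. Without replicate 1 it was 0.982. It was 0.981 in set 2 and 1.37 in set 3.

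In dcl234 plants the share was 0.00260%, 0.00637% and 0.00295%, against the 0.00292 to 0.00312% of Col-0. The ratio of means was 1.32 and depended on replicate 2, without which it was 0.921. In set 3, the only one that holds both groups, it was 0.982.

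Within the dcl234 background, dcl234 35S-RTL2 had shares of 0.00265%, 0.00314% and 0.00322%, all within the range of dcl234, and the ratio to dcl234 was 0.756. Without dcl234 replicate 2 the ratio was 1.08. It was 0.646 in set 1, which holds that library, and 1.09 in set 3. The single library of dcl234 35S-truncatedDCL1 stood at 0.00293% (exact 95% binomial interval 0.00275 to 0.00311%). Its ratio to dcl234 was 0.737, and 1.05 without dcl234 replicate 2.

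The 3 high libraries shared some high rows and differed in others. Among the 29 tested rows, dcl234 replicate 2 was the highest of the 18 libraries in 13 rows, 35S-RTL2 replicate 3 in 8 and 35S-RTL2 replicate 1 in 6. They exceeded the row's median over 2-fold in 19, 17 and 13 rows, whereas each of the other 15 libraries did so in at most 3 rows. All 3 did so in 6 rows, 2 of them in 11, 1 of them in 9 and none in 3. In dcl234 replicate 2 the row of ATMG00090 and ATMG00080 was not raised, with 270 counts, and made up 18.8% of the mitochondrial counts, against 29.9 to 48.0% in the other 17 libraries.

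**Figure D2:**
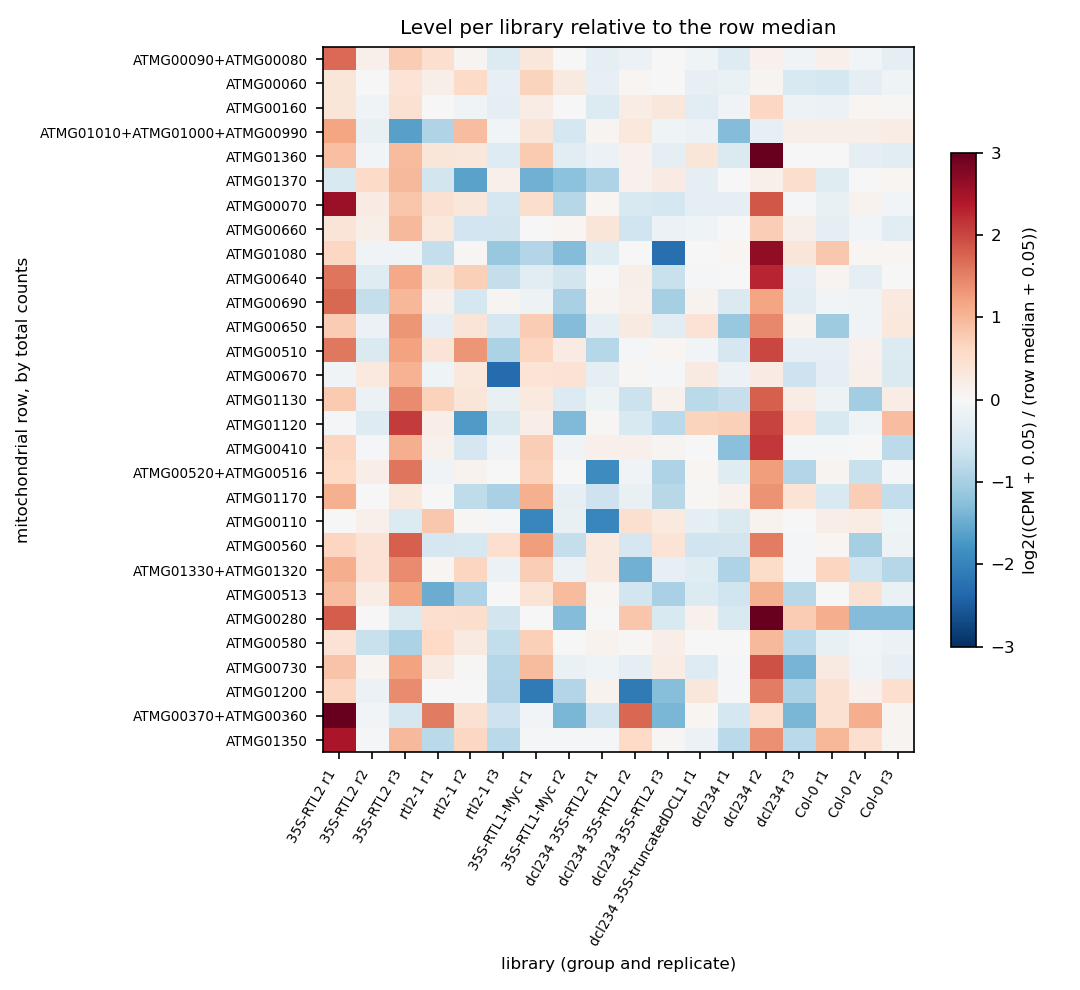
Level of the 29 tested mitochondrial rows (y axis, most counts at the top) in the 18 libraries (x axis), as log2 of CPM plus 0.05 over the row's median plus 0.05. Columns of 35S-RTL2 replicates 1 and 3 and of dcl234 replicate 2 are mostly above the median, and their highest rows differ, with ATMG01360 and ATMG00280 in dcl234 replicate 2 and ATMG00370+ATMG00360 and ATMG00070 in 35S-RTL2 replicate 1.

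Single rows show how these excesses were distributed. ATMG01360 had 222 counts in dcl234 replicate 2, and between 18 and 48 in each of the other 17 libraries. ATMG00280, noted by RefSeq as a mitochondrial piece with the catalytic domain of the Rubisco large chain, the plastid enzyme that fixes carbon dioxide, had 62 counts in dcl234 replicate 2 and 0 to 8 elsewhere. ATMG01080, which encodes subunit 9 of the membrane part of the ATP synthase, had 88 counts in that library and 2 to 25 elsewhere. In 35S-RTL2 replicate 1 it was other rows that stood out. The row of ATMG00090 and ATMG00080 had 741 counts there and 208 to 455 in the other libraries, ATMG00070 had 79, and the row of ATMG00370, noted as a Ycf1 protein, and ATMG00360 had 32 counts, against 0 to 9 in each other library.

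The filter on low counts must be kept in mind for the tested rows. It kept a row that reached a floor of 0.403 CPM in at least 1 library, because the smallest group has 1 library. Of the 29 rows, 6 were over that floor in all 18 libraries and 4 in a single one, ATMG00280 and ATMG00580 in dcl234 replicate 2 and ATMG00370+ATMG00360 and ATMG01350 in 35S-RTL2 replicate 1. ATMG00730 and ATMG01200 were over it only in 35S-RTL2 replicate 3 and dcl234 replicate 2. ATMG01330+ATMG01320 was over it only in 35S-RTL2 replicates 1 and 3. Rows that passed only through high libraries had to be high there. The 29 rows hold 95.5% of the mitochondrial counts, and 45 rows with counts were not tested.

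The spread of mitochondrial rows between replicates depended on the 3 high libraries. With all libraries the median biological coefficient of variation, the spread beyond counting error in edgeR's fit, was 47.4% for the 29 rows, 12.3% for all 21343 rows tested and 32.0% for 2382 other rows of similar mean level. Without the 3 libraries it was 27.8% for the 22 mitochondrial rows then tested, against 45.5% for the same rows with all libraries. For 2342 of those other rows it was 33.7% without them. The 3 libraries were chosen after their high values in mitochondrial rows were seen. A fall in the spread of these rows was therefore built in, and the other rows had no such choice made for them. The same choice shaped the shares and fold changes given without these libraries, in comparisons that hold any of them. A shift there was also built in and is no separate result.

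The row of ATMG00090 and ATMG00080, the most counted, was the 1 mitochondrial row called different among the 7 groups by edgeR's quasi-likelihood test (adjusted p = 0.0454), in a test that called 40.7% of all rows. Its level was 35.6, 12.04 and 18.5 CPM in 35S-RTL2, 15.46, 11.5 and 8.19 CPM in rtl2-1, and 13.9 and 10.8 CPM in 35S-RTL1-Myc. It was 8.97, 9.59 and 11.1 CPM in dcl234 35S-RTL2, 10.05 CPM in dcl234 35S-truncatedDCL1, 8.29, 12.02 and 10.13 CPM in dcl234, and 12.04, 10.3 and 9.10 CPM in Col-0. 35S-RTL2 replicates 1 and 3 were the highest libraries of all, and the remaining libraries of every group lay between 8.19 and 15.46 CPM. The adjusted p was 0.336 without 35S-RTL2 replicate 1 and 0.682 without the 3 high libraries, and the call was lost in 13 of 17 fits that left out 1 library. With the set number in the deposited tables' names as a batch term the adjusted p was 0.0768, and the 1 row called was that of ATMG00370 and ATMG00360. DESeq2 called 4 mitochondrial rows in the same test.

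ATMG00060, the second most counted row, rose in 35S-RTL1-Myc plants. Its level was 6.88 and 5.21 CPM in the 2 libraries of 35S-RTL1-Myc, against 2.97, 3.54 and 3.93 CPM in Col-0. Both were above every Col-0 library. The log2 fold change was 0.80 ± 0.23 (SE), with an adjusted p of 0.0186 in edgeR's quasi-likelihood test. It was the only one of the 29 tested rows called in this comparison, which called 29.5% of all rows. The call was lost without 35S-RTL1-Myc replicate 1 (log2 fold change 0.58) and without Col-0 replicate 1 (0.69).

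The same row stood at 5.58, 4.36 and 5.81 CPM in 35S-RTL2 and at 4.89, 6.43 and 3.65 CPM in rtl2-1. Its unadjusted p was 0.0149 in 35S-RTL2 and 0.0296 in rtl2-1 against Col-0, and neither was called after adjustment over all rows by edgeR (adjusted p = 0.899 and 0.406). These comparisons share the Col-0 libraries with that of 35S-RTL1-Myc. In dcl234 35S-RTL2, dcl234 35S-truncatedDCL1 and dcl234 its levels were 3.65 to 4.50, 3.63 and 3.14 to 4.58 CPM.

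ATMG00160, the next row by counts, was called in no comparison. Its group means were 5.11 ± 1.03 CPM in 35S-RTL2, 3.86 ± 0.374 CPM in rtl2-1, 4.50 ± 1.17 CPM in dcl234 35S-RTL2, 4.78 ± 1.57 CPM in dcl234 and 4.19 ± 0.371 CPM in Col-0 (SD, n = 3 each). In 35S-RTL1-Myc it was 4.66 ± 0.475 CPM (SD, n = 2) and in the single dcl234 35S-truncatedDCL1 library 3.38 CPM. Its unadjusted p in edgeR's tests lay between 0.165 and 0.737.

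Among the other rows with large counts, ATMG00660 had 20, 23 and 36 counts in 35S-RTL2, against 14, 18 and 13 in Col-0. All 35S-RTL2 libraries were above all of Col-0 in CPM, as in 5.01% of all rows. The log2 fold change of 0.82 ± 0.36 (SE) was not called (adjusted p = 0.899 by edgeR) and was 0.54 without 35S-RTL2 replicate 3. ATMG00640 had 32, 10 and 27 counts in 35S-RTL2 and 12, 56 and 12 in dcl234, against 12, 10 and 11 in Col-0. Its high values were again those of the 3 libraries that stood apart. ATMG01370 went another way, with 13, 37 and 43 counts in 35S-RTL2, 14, 6 and 29 in rtl2-1, and 22, 22 and 41 in dcl234, against 16, 23 and 21 in Col-0. Neither 35S-RTL2 replicate 1 nor dcl234 replicate 2 was high in it.

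Only rows that RefSeq notes name are placed in a complex here. Rows without a printed name, such as ATMG00060 and ATMG01360, may belong to the same complexes. Complex I is the NADH dehydrogenase that feeds electrons into the respiratory chain. Among its named genes, the row with the gene for subunit 3 (ATMG01010, ATMG01000 and ATMG00990) swung widely between replicates of 1 group. It had 102, 51 and 16 counts in the 3 libraries of 35S-RTL2, 27, 97 and 59 in rtl2-1, and 21, 40 and 77 in dcl234, against 58, 64 and 58 in Col-0. 35S-RTL2 replicates 1 and 3, both high in total mitochondrial counts, were here the highest and the lowest of all 18. The level was 2.46 ± 2.20 CPM in 35S-RTL2 and 2.45 ± 0.0487 CPM in Col-0 (SD, n = 3 each), a log2 fold change of −0.01 ± 0.57 (SE). The row with the gene for subunit 2B (ATMG01330 and ATMG01320) had 10, 8 and 15 counts in 35S-RTL2, against 8, 3 and 2 in Col-0, and was not called (log2 fold change 1.34 ± 0.61, adjusted p = 0.899 by edgeR). This row passed the filter only through 35S-RTL2 replicates 1 and 3, so its values give no support to a difference.

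Complex IV, cytochrome c oxidase, passes electrons to oxygen. The gene for its subunit 3, ATMG00730, had 7, 5 and 11 counts in 35S-RTL2, 10 and 4 in 35S-RTL1-Myc, and 4, 17 and 1 in dcl234, against 5, 4 and 3 in Col-0. The highest library was dcl234 replicate 2, but the row passed the filter only through that library and 35S-RTL2 replicate 3. With so few counts the SE of its log2 fold changes in the 6 comparisons between groups was 0.80 to 1.15, and none was called.

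For the ATP synthase, ATMG01080 (subunit 9) had 12, 14 and 2 counts in dcl234 35S-RTL2, against 15, 88 and 24 in dcl234. All 3 were below all 3 of dcl234, and the log2 fold change was −2.22 ± 0.70 (SE), with an unadjusted p of 0.00639 and an adjusted p of 0.646 by edgeR. Without dcl234 replicate 2 the log2 fold change was −0.88. ATMG00410 (subunit 6-1) had 9, 7 and 15 counts in 35S-RTL2 and 2, 29 and 8 in dcl234, against 6, 7 and 3 in Col-0. It was not called in any comparison.

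ATMG00560, which RefSeq notes as a nucleic acid-binding protein with an OB fold, had 7, 8 and 20 counts in 35S-RTL2, against 5, 2 and 4 in Col-0. All 35S-RTL2 libraries were above all of Col-0 in CPM, as in 5.01% of all rows. The log2 fold change of 1.64 ± 0.75 (SE) was not called (adjusted p = 0.899 by edgeR), and was 1.02 without 35S-RTL2 replicate 3. Of these libraries only 35S-RTL2 replicate 3 was over the floor of the filter, so the values give no support to a difference.

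35S-RTL2 against Col-0 sets an excess of this RNase III-like protein against the wild type. None of the 29 rows was called, in a comparison that called 0.00937% of all rows. DESeq2 called none either, and 6 rows had an unadjusted p under 0.05, all of them higher in 35S-RTL2, as had 4.48% of all rows in either direction. The fold change was above 0 in 25 of the 29 rows, with a median log2 fold change of 0.94, against −0.002 over all rows tested. Without the 3 high libraries, when 1 library of 35S-RTL2 is left and 22 mitochondrial rows are tested, the median was 0.10, against 0.86 for those rows in the full fit. In 6 rows all 3 libraries of 35S-RTL2 were above all 3 of Col-0, as in 5.01% of all rows. The 29 rows passed the filter partly through the high libraries of 35S-RTL2, so these counts describe the rows and give no support to a difference. ATMG00070, with 79, 20 and 27 counts in 35S-RTL2 and 12, 17 and 13 in Col-0, had a log2 fold change of 1.69 (SE 0.67), and 0.66 without 35S-RTL2 replicate 1.

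rtl2-1 against Col-0 sets the RTL2 mutant against the wild type. No mitochondrial row was called, in a comparison that called 0.122% of all rows, and DESeq2 called none. ATMG00060 was the 1 row with an unadjusted p under 0.05, as had 11.4% of all rows. The median log2 fold change was 0.10, with 17 rows above 0 and 12 below.

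In 35S-RTL1-Myc against Col-0, 18 of the 29 rows were above 0 and 11 below, with a median log2 fold change of 0.27. An unadjusted p under 0.05 was found for 2 rows, against 40.1% of all rows. All libraries of 35S-RTL1-Myc were above all of Col-0 in 5 rows and below them in 8 rows, in a comparison with 30.6% and 30.9% of all rows in these classes. ATMG01370 had 8 and 10 counts in 35S-RTL1-Myc, against 16, 23 and 21 in Col-0. Its log2 fold change of −1.36 ± 0.56 (SE) had an adjusted p of 0.0841 by edgeR and was not called. It was called when the compared groups were fitted alone.

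For dcl234 against Col-0, no row was called by edgeR or DESeq2, where 4.56% of all rows were called. The 2 rows with an unadjusted p under 0.05, as had 17.3% of all rows, were ATMG01360 and ATMG00280, with log2 fold changes of 2.14 and 3.71. ATMG01360 had 18, 222 and 31 counts in dcl234, against 24, 21 and 18 in Col-0, and its log2 fold change was −0.02 without dcl234 replicate 2. ATMG00280 was not tested without that library, since it no longer reached the floor of the filter. The median over the 29 rows was 0.50, and over the 22 rows tested without the 3 high libraries it was −0.14, against 0.66 for those rows in the full fit.

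Adding 35S-RTL2 to dcl234 gave no called row by edgeR or DESeq2, in a comparison that called 0.0609% of all rows. 5 rows had an unadjusted p under 0.05, all lower in dcl234 35S-RTL2, as had 5.42% of all rows in either direction, and the median log2 fold change was −0.62. Over the 22 rows tested without the 3 high libraries it was 0.12. ATMG01080, ATMG01360 and ATMG00280, described above for dcl234 replicate 2, were among the 5. In 3 rows all libraries of dcl234 35S-RTL2 were below all of dcl234, as in 7.65% of all rows. The log2 fold change of ATMG01360 was −2.05, and 0.11 without that library.

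The dcl234 35S-truncatedDCL1 library against dcl234 had no replicate, and the spread of the other groups was assumed for it. No row was called by edgeR or DESeq2, none had an unadjusted p under 0.05 where 15.6% of all rows had, and 5.65% of all rows were called. The median log2 fold change was −0.56, with 26 of 29 rows below 0. Over the 22 rows tested without the 3 high libraries it was 0.11, with 9 rows below 0.

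The effect of 35S-RTL2 in dcl234 minus its effect in the wild-type background was tested as an interaction. No row was called by edgeR or DESeq2, where 0.00937% of all rows were called. 10 rows had an unadjusted p under 0.05, all negative, as had 5.26% of all rows in either direction, and the median log2 difference was −1.64, against 0.009 over all rows. The 3 high libraries belong to 35S-RTL2 and dcl234, which both enter this difference with a negative sign. Without them ATMG00510 and ATMG00640, at −2.48 and −2.44 in the full fit, stood at 0.47 and 0.36. The other 8 of the 10 rows kept a negative sign, with values from −0.95 to −0.001. The median over the 22 rows then tested was −0.08, against −1.72 for those rows in the full fit. This shift was built in, since the 3 libraries were chosen for high values in mitochondrial rows.

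**Figure D3:**
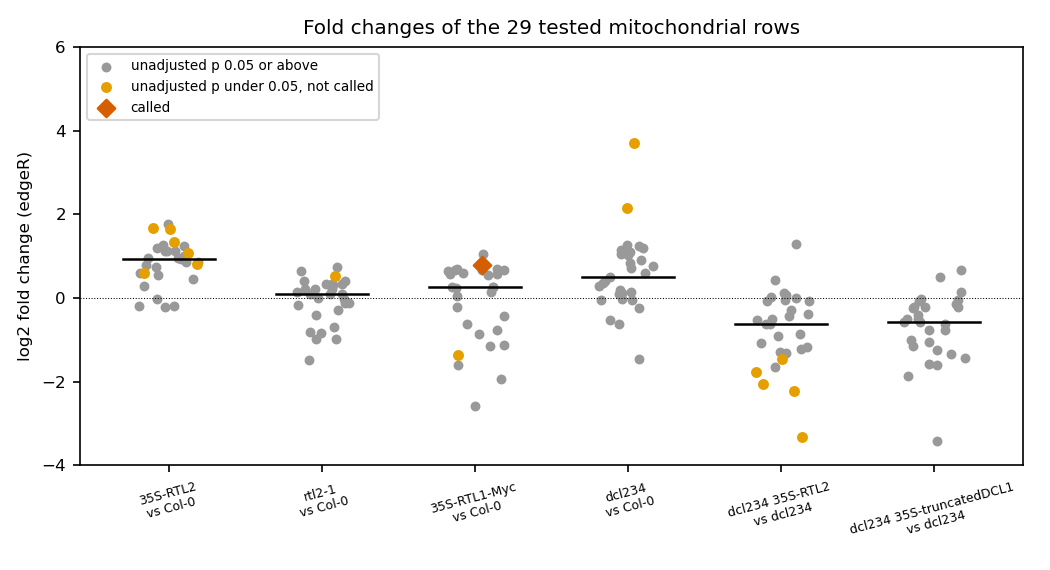
log2 fold changes (y axis, edgeR) of the 29 tested mitochondrial rows in the 6 comparisons between groups (x axis). Each point is 1 row, horizontal lines are medians, orange points have an unadjusted p under 0.05 and the red diamond is ATMG00060, the called row. Medians are 0.94 for 35S-RTL2 and 0.50 for dcl234 against Col-0, and −0.62 and −0.56 in the comparisons against dcl234.

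The chromosome 2 copy bears on which rows can take a mitochondrial read. In the TAIR10.1 assembly 70.4% of all 50-base words of the mitochondrial genome also occur on chromosome 2. Among 32 mitochondrial protein genes in RefSeq, the coding parts of 15 are found whole in the nuclear chromosomes in such words, those of 5 (atp4, ccmB, cox1, nad4L and nad9) not at all, and the other 12 in part. The authors' counts used TAIR9, and whether these shares hold for its mitochondrial sequence was not tested. How reads that match in several places were counted is not given in the sources used here.

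RefSeq notes a nuclear copy for genes of 51 of the 134 rows. These rows held 13.9% of the mitochondrial counts, 8 of them were tested and 22 stood at 0. The 83 rows with no noted copy held 86.1% of the counts. A missing note does not mean that a nuclear copy is missing. The coding parts of nad4 and nad6 are found whole on chromosome 2. Yet neither is among the 15 genes matched by name to such notes. Of the rows with no noted copy 38 (45.8%) stood at 0, as did 43.1% of the rows with a noted copy. The 3 rows with the most counts have no noted copy. Outside them, rows with a noted copy held 34.3% of the counts and were 38.9% of the rows.

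For many genes the copy took more counts than the mitochondrial row. Of 46 mitochondrial rows of 1 gene whose noted copy has a row, alone or joined with other genes, 23 had fewer counts than the copy, 15 had more, and 8 had 0 on both. ATMG01100 and ATMG01110 share 1 such copy row. ATMG00220, apocytochrome b of complex III, had 1 count in all 18 libraries, and its copy AT2G07727 had 335. ATMG00210, ribosomal protein L5, had 0 counts and the row of its copy, AT2G07726 and AT2G07725, had 207. ATMG01190, subunit 1 of the ATP synthase, had 37 counts and AT2G07698 had 436. The reverse held for ATMG01080, with 320 counts and 166 on AT2G07671, and for ATMG00410, with 155 counts. Other ribosomal protein genes with whole nuclear copies, ATMG00290 (S4) and ATMG01270 (S7), had 0 counts, as did ATMG00900 of cytochrome c maturation.

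**Figure D4:**
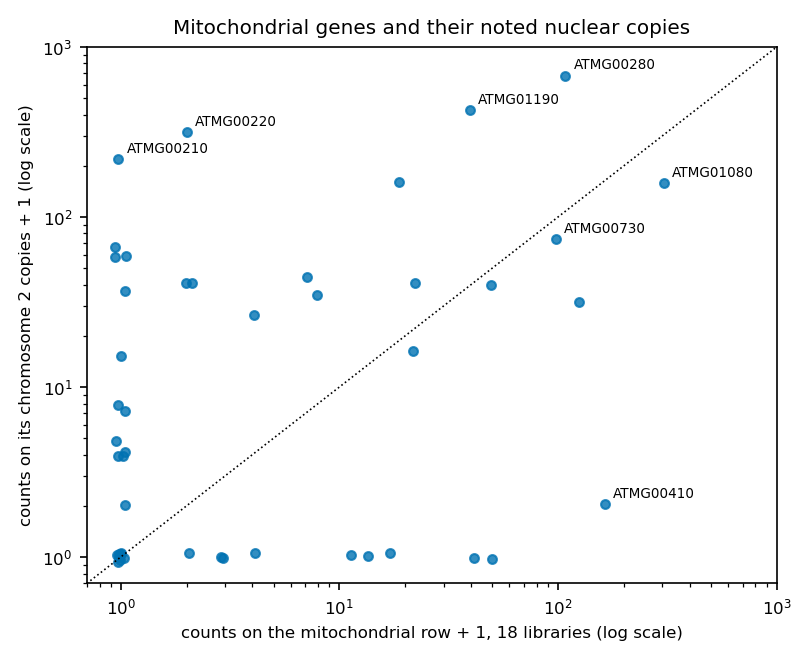
Counts summed over 18 libraries plus 1 on each mitochondrial row of 1 gene (x axis, log scale) and on its noted chromosome 2 copies (y axis, log scale), with points moved slightly at random so that they do not hide each other. The dotted line marks equal counts, and 23 of 46 genes lie above it, among them ATMG00220 with 1 count against 335.

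The copies were high in the same libraries as the mitochondrial rows. The 53 noted copy rows had 667 counts in dcl234 replicate 2, 261 in 35S-RTL2 replicate 1 and 304 in 35S-RTL2 replicate 3, against 89 to 206 in the other 15 libraries. AT2G07732, the copy noted for ATMG00280, had 362 counts in dcl234 replicate 2 and 6 to 46 elsewhere. Leaving it out, the copies summed to 13.6, 10.3 and 11.3 CPM in those 3 libraries and to 2.94 to 6.77 CPM in the others. None of the 10 copy rows that were tested was called by edgeR in the 6 comparisons between groups. The share of all rows called there ran from 0.00937% in 35S-RTL2 to 29.5% in 35S-RTL1-Myc, and was 4.56% in dcl234 against Col-0. Where the sequences are shared, reads of mitochondrial transcripts and of their nuclear copies cannot be told apart in these rows. The 5 genes whose coding parts share no 50-base word with the nuclear chromosomes were not matched to rows by name. The plastid genome, which has no row here, holds 0.319% of the 50-base words of the mitochondrial genome in TAIR10.1. Whether plastid reads fell on ATMG00280 or AT2G07732 was not tested.

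**Figure D5:**
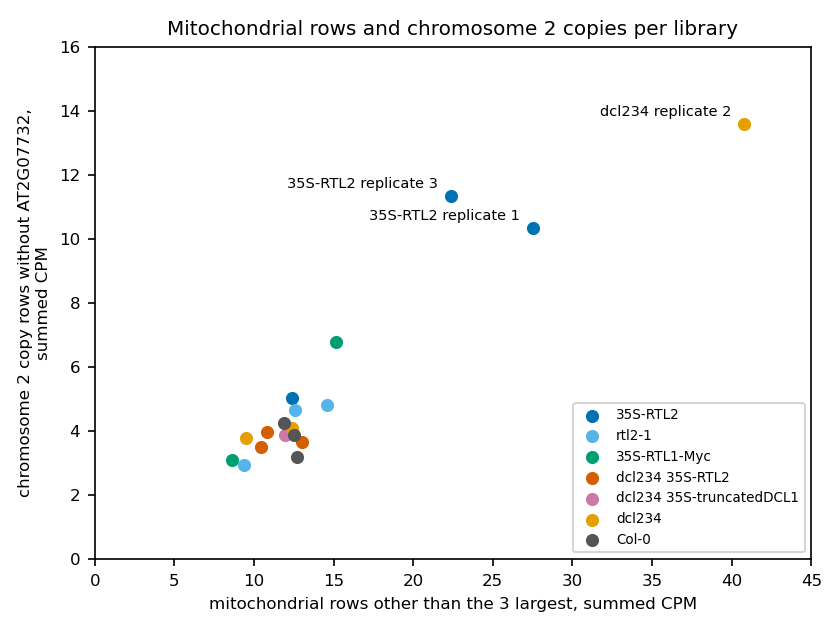
Summed CPM of the mitochondrial rows other than the 3 with the most counts (x axis) and of the noted chromosome 2 copies without AT2G07732 (y axis), 1 point per library, coloured by group. dcl234 replicate 2 lies at 40.8 and 13.6 CPM, 35S-RTL2 replicates 1 and 3 at 27.5 and 10.3 CPM and at 22.4 and 11.3 CPM, and the other 15 libraries at or below 15.2 and 6.77 CPM.

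Nuclear genes that work with the mitochondrial genome were counted from lists of the respiratory chain, the ATP synthase, the stress response and RNA processing. Of the 7 listed subunits of complex I, 3 of complex II, 8 of complex III with cytochrome c and 8 of the ATP synthase, none was called in the 6 comparisons between groups by edgeR, where the share of all rows called was highest, at 29.5%, in 35S-RTL1-Myc. In complex IV, AT3G15640 fell in rtl2-1 plants to 51.1 ± 10.0 CPM, against 97.8 ± 11.3 CPM in Col-0 (SD, n = 3 each, adjusted p = 0.0218 by edgeR). It was the 1 of 7 listed subunits called there, where 0.122% of all rows were called. A row that holds another listed subunit, AT2G47390 and AT2G47380, was lower in 35S-RTL1-Myc (log2 fold change −0.36 ± 0.09 SE, adjusted p = 0.00853 by edgeR). That row was the 1 of 7 called there, where 29.5% of all rows were called.

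Of 10 listed genes of the mitochondrial stress response, 5 were called in 35S-RTL1-Myc plants, all higher, where 14.8% of all rows were called higher. The median log2 fold change of the 10 was 0.49, against −0.004 over all rows. The list was chosen with earlier results of these data known, so these counts give no independent support to a response. BCS1, a mitochondrial AAA-type ATPase induced by stress, stood at 20.1 ± 11.3 CPM in 35S-RTL1-Myc (SD, n = 2), against 6.46 ± 1.03 CPM in Col-0 (SD, n = 3). AT2G21640 stood at 9.31 ± 1.60 CPM and 1.79 ± 0.410 CPM. In the single dcl234 35S-truncatedDCL1 library 4 of the 10 were called higher, where 4.70% of all rows were, and AOX1A, the alternative oxidase, stood at 31.4 CPM, against 19.2 ± 2.08 CPM in dcl234 (SD, n = 3). In dcl234 AOX1A was lower than in Col-0, at 19.2 ± 2.08 CPM against 30.01 ± 3.44 CPM (SD, n = 3 each, adjusted p = 0.0168 by edgeR). It was the 1 of the 10 called there, where 4.56% of all rows were called. No stress gene was called in 35S-RTL2, rtl2-1 or dcl234 35S-RTL2 against their comparison groups. These comparisons called only 0.00937%, 0.122% and 0.0609% of all rows, so no call among 10 genes says little.

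Of 18 listed factors of splicing, processing and editing of mitochondrial RNA, 3 were called higher and 3 lower in 35S-RTL1-Myc plants, or 6 in all, in the comparison that called 29.5% of all rows. RPF2 and RPF3, pentatricopeptide repeat proteins that act on 5′ ends of mitochondrial transcripts, had log2 fold changes of 0.70 ± 0.16 and 0.62 ± 0.15 (SE), and BIR6, needed for splicing of a complex I transcript, of −0.63 ± 0.12. PRORP1, an organellar RNase P protein that cuts tRNA precursors, was the 1 of 6 listed factors of transcription and decay that was called, at −0.54 ± 0.13. In dcl234 plants RPF3 was the 1 of the 18 called, at 0.53 ± 0.14, where 4.56% of all rows were called. None of these factors was called in 35S-RTL2 or rtl2-1, where 0.00937% and 0.122% of all rows were called. None was called in dcl234 35S-RTL2 or dcl234 35S-truncatedDCL1 against dcl234 either, where 0.0609% and 5.65% were.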

How the data were processed

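The authors deposited raw read counts, 1 table per library. Per the submitters' processing notes they used TAIR9. The sources used here do not give the aligner, the counting rule, or its handling of strand and of reads with several matches. Rows were filtered with filterByExpr by group (21343 left), scaled by TMM and fitted with edgeR 4.0.16 in R 4.3.3 (glmQLFit, glmQLFTest) as group means over all 18 libraries. Calls use Benjamini-Hochberg adjusted p under 0.05 over all tested rows. SE is the log2 fold change over the square root of F. The fit was tested on simulated counts with 200 changed genes. Alternatives were DESeq2 1.42.0, other scalings and filters, batch and block terms, and left-out libraries. Called rows and the 10 rows with the largest mean CPM were to be described, and other tested rows could be named. Role lists of mitochondrial genes were not used, since the sources name only some of them. Untested rows named beside chromosome 2 copies were chosen after their values were seen. The members and gene lists were chosen with earlier results of these data known. Names came from RefSeq notes (45 identifiers matched). No coordinate or sequence is printed, because the reference assembly, TAIR10.1, is not the files' build.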

Additional observations from a re-analysis of the deposited data

How the results depend on the processing

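The number of mitochondrial rows called stayed at 0 in all 80 alternatives to the 6 results with no call. It moved by over 1.5 times in 3 of 12 alternatives for 35S-RTL1-Myc and in 17 of 23 for any difference among groups. The ratio of mean shares moved by less than 1 SD in 71 of 72. That limit is wide, since ratios within it crossed 1 when 1 library was left out. They ran from 0.921 to 1.546 for dcl234 against Col-0. Against dcl234 they ran from 0.644 to 1.082 for dcl234 35S-RTL2 and from 0.628 to 1.055 for dcl234 35S-truncatedDCL1. In 35S-RTL1-Myc against Col-0 the count was 3 with the compared groups fitted alone and ranged from 0 to 1 with 1 library left out. For any difference among the 7 groups it was 4 with DESeq2, 0 without the 3 high libraries (an alternative chosen after seeing the data), and 0 to 3 with 1 library left out. It was 1 with the batch term and without dcl234 replicate 3, but the called rows there were ATMG00370+ATMG00360 and ATMG01080. The ratio of 35S-RTL1-Myc to Col-0 was 0.858 when all rows starting with AT2G07 were added. With 1 library left out, the log2 fold change of ATMG01360 ranged from −0.021 to 2.64 in dcl234 against Col-0 and from −2.54 to 0.11 in dcl234 35S-RTL2 against dcl234, with the sign turning without dcl234 replicate 2. Without the 3 high libraries it was −0.021 and 0.11. In the interaction ATMG00510 and ATMG00640 turned to 0.47 and 0.36 without these 3. These turns come from leaving out libraries.

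Same replicate numbers did not meet the rule for pairing, which asks for a correlation of deviations over 0.1 in every pair: 15 of 40 such pairs had one (median 0.04), against 16 of 80 other pairs (median −0.03). Among replicates 1, all 10 pairs without dcl234 35S-RTL2 were over 0.1, and the 5 pairs with it lay between −0.302 and −0.0572. With the number as a replicate block, 2 rows were called for any difference among groups, where dcl234 35S-truncatedDCL1, which has no number, was left out, 1 in 35S-RTL1-Myc and 0 in the other comparisons.

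Depth limits the members: most rows had under 30 counts in all, so differences in them were not detectable. The alternative without ribosomal and transfer RNA rows was run only without ATMG00020, ATMG01380 and ATMG01390, since the sources used here do not mark the transfer RNA rows.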
